A study of Mus musculus with 8 samples.

Results

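Lrp2, Cubn, Amn, Dab2 and Fcgrt, the genes of the megalin-cubilin endocytic receptor, its adaptor and the neonatal Fc receptor, were followed by name as 5 of the 23091 genes in the deposited tables. The cells were taken, untreated, from extraembryonic yolk sacs of C57BL/6N wild-type mouse embryos at embryonic day 9.5. They were stained for CD45 and CD11b, and CD45+ cells were sorted singly into plates and sequenced by mCEL-Seq2, which reads a tag near the 3' end of each transcript with a well barcode and a molecular identifier. There were 4 libraries labelled A1/A2, the names of successive macrophage precursors of the yolk sac, and 4 labelled EMP (erythro-myeloid progenitor in this field). The EMP libraries were, per the labels, run beside the others and left out of the study's own publication. All 8 libraries share the genotype, stage, tissue and library batch, and the labels do not say whether they came from separate litters, so that p-values measure the spread between these libraries only. Wells with at least 1000 transcripts were kept, which left 568 of 768 A1/A2 wells and 655 of 768 EMP wells.

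Megalin, encoded by Lrp2, is a giant receptor of the lipoprotein receptor family, and cubilin, encoded by Cubn, is a large extracellular protein with no membrane-spanning part of its own. Amnionless, encoded by Amn, anchors cubilin and carries it to the cell surface. Dab2 is a cytoplasmic adaptor that links megalin to clathrin, and Fcgrt encodes the heavy chain of FcRn, which salvages IgG and albumin from endosomes. In the visceral endoderm of the rodent yolk sac these receptors take up maternal proteins, lipids and vitamins for the embryo. Dab2 is also known from macrophages, and FcRn from many haematopoietic cells.

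The stretches before the transcription starts of the receptor genes and their adaptor are printed to show how the genes differ in the make-up of their promoters. They are the 250 bases upstream of each RefSeq start on GRCm38.p6, 5' to 3' on the gene's strand, and capitals mark matches, on either strand, to motifs searched for: the HNF4 core CAAAGT, part of the HNF1 site with letters GTTAAT, the GATA factor sites, with letters AGATAA or else with letters TGATAA, the SP1 site with letters GGGCGG, and the TATA box with letters TATAAA.
Lrp2, chr2:69586030-69586279, minus strand: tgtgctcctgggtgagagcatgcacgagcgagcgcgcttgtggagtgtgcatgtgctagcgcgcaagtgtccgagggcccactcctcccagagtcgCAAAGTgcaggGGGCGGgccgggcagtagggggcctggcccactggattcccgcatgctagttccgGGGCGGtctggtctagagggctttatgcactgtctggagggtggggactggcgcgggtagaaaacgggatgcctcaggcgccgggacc
Cubn, chr2:13491877-13492126, minus strand: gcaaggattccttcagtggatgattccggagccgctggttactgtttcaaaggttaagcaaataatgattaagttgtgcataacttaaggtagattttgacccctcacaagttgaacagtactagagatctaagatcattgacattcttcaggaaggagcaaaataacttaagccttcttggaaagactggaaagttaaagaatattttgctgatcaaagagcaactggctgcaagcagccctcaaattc
Dab2, first start, chr15:6299539-6299788, plus strand: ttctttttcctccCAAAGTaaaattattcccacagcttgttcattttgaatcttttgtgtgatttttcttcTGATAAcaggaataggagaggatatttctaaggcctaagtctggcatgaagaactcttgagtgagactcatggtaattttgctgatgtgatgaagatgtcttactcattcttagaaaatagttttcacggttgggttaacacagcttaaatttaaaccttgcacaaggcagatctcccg
Dab2, second start, chr15:6386498-6386747, plus strand: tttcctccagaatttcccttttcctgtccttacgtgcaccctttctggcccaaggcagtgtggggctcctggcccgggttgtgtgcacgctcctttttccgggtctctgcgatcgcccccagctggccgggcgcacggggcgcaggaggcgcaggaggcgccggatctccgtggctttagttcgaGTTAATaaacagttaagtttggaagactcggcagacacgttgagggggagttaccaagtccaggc
The Lrp2 stretch had 66.4% GC and 18 CpG, with 1 CAAAGT and 2 GGGCGG matches, and the Cubn stretch had 39.6% GC and 2 CpG, with none of these letters. The Dab2 starts differed in the same way, with 36.8% GC, 1 CAAAGT and 1 TGATAA at the first and 60.0% GC, 17 CpG and 1 GTTAAT at the second. The Amn stretch had 61.2% GC, 11 CpG and 1 GGGCGG, and that of Fcgrt had 53.2% GC, 5 CpG and none of the motifs. Among 32851 such windows of 27025 genes the median was 52.4% GC with 6 CpG. CAAAGT was found in 12.6% of these windows, GGGCGG in 32.7%, TATAAA in 12.4%, AGATAA in 9.99%, TGATAA in 7.94% and GTTAAT in 6.43%.

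Wells were classed by other genes. A well was called endoderm when Apoa1, an apolipoprotein of yolk sac endoderm, exceeded 35.8 counts per 10000, which is 2 times the mean over kept wells of 17.9. The well just above this limit had 35.8457 and the one just below it 35.8244. Of the other wells, those with a transcript of Cx3cr1 or Mrc1, genes of macrophages and their precursors, were called myeloid. This gave 57 endoderm, 239 myeloid and 272 other wells in A1/A2 libraries, and 163, 113 and 379 in EMP libraries. Of the endoderm wells, 27 of the A1/A2 (47.4%) and 22 of the EMP libraries (13.5%) also had a Cx3cr1 or Mrc1 transcript. Endoderm wells made up 10.2% ± 3.79 of kept wells in A1/A2 libraries and 24.6% ± 12.1 in EMP libraries (SD, n = 4 each), with 41.2% in EMP 2.

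The classes carried their names unevenly. Of 15 yolk sac endoderm markers, 14 were higher in endoderm than in myeloid wells, and of 10 macrophage markers tested 9 were lower. Over all genes tested, 27.4% were higher and 26.6% lower. Summed over 13 markers, macrophage transcripts stood at 1946 ± 42.1 CPM (transcripts of a gene per 1e+06 transcripts of the wells summed; SD, n = 4 libraries) in A1/A2 myeloid wells (range 1902 to 2003), but at 380 ± 116 in EMP myeloid wells (273 to 544). The 13 include Cx3cr1 and Mrc1, by which myeloid wells were chosen, so that part of this sum follows from the rule. Of the 11 macrophage markers tested in myeloid wells all 11 were higher in A1/A2, and 8 of 9 endothelial markers were lower, so that the EMP wells of this class are called myeloid by the rule alone. Over all genes tested in myeloid wells, 15.1% were higher in A1/A2 and 15.1% lower. Endoderm wells held macrophage transcripts at 375 ± 131 CPM in A1/A2 (275 to 568) and 62.4 ± 6.67 in EMP libraries (53.8 to 69.9). Ptprc, which encodes the CD45 used in the sort, averaged 26.5 ± 13.2 CPM in A1/A2 endoderm wells and 2.29 ± 1.91 in EMP endoderm wells, against 105 ± 17.6 in A1/A2 myeloid wells and 15.2 ± 9.38 in EMP myeloid wells. Kept wells held 2558197 to 3559612 transcripts per A1/A2 library and 3888853 to 5418136 per EMP library, and every well name recurs in all 8 libraries.

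In endoderm wells all 5 genes stood above their level in myeloid wells of the same libraries, by 1.01 to 1.66 on the log2 scale. Levels below are CPM of a class of wells, at 1 tag per molecule whatever the transcript's length, for libraries 1, 2, 3 and 4 in order. Lrp2, the megalin gene, had 180.5, 298.6, 266.7 and 243.5 in A1/A2 endoderm wells and 288.3, 300.1, 331.4 and 314.8 in EMP endoderm wells, against 49.3, 97.6, 89.3 and 77.9 in A1/A2 myeloid wells and 133.1, 184.8, 183.9 and 127.7 in EMP myeloid wells. The endoderm level of Lrp2 was above the myeloid level in every library, and the groups of wells did not overlap in A1/A2 or in EMP libraries. The share of all genes without such overlap between the classes was not computed. Its log2 fold change was 1.42 ± 0.11 (SE; adjusted p = 2.2e-10, edgeR's quasi-likelihood test over 16 library and class sums with the library as a term).

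Cubn, the cubilin gene, was the most abundant of the 5 in endoderm wells. It had 1796, 2113, 1711 and 1864 CPM in A1/A2 endoderm wells and 1898, 2562, 2178 and 2233 in EMP endoderm wells, against 390, 722, 481 and 575 in A1/A2 myeloid wells and 804, 1411, 1081 and 620 in EMP myeloid wells. The classes did not overlap in either group of libraries, again with no share over all genes computed. The log2 fold change of Cubn was 1.64 ± 0.15 (adjusted p = 9.2e-06). Amn, which encodes cubilin's membrane partner, had 350.0, 424.0, 353.4 and 345.0 in A1/A2 endoderm wells and 365.3, 385.0, 309.4 and 356.8 in EMP endoderm wells, against 74.3, 143.4, 87.5 and 99.99 in A1/A2 myeloid wells and 133.1, 219.3, 163.5 and 111.4 in EMP myeloid wells. Its log2 fold change was the largest of the 5, at 1.66 ± 0.14 (adjusted p = 2.1e-07), though within the SE of that of Cubn.

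Dab2, the clathrin adaptor, had 1049, 1366, 1235 and 1422 CPM in A1/A2 endoderm wells and 1387, 1921, 1703 and 1547 in EMP endoderm wells, against 544, 944, 706 and 719 in A1/A2 myeloid wells and 728, 1178, 887 and 617 in EMP myeloid wells. Its log2 fold change of 1.01 ± 0.07 was the smallest of the 5 (adjusted p = 9.3e-12). Fcgrt, the FcRn heavy chain, was the least abundant, with 11 to 309 counts behind each endoderm value. It had 41.3, 89.0, 69.7 and 90.6 CPM in A1/A2 endoderm wells and 76.3, 83.1, 100.04 and 87.6 in EMP endoderm wells, against 27.0, 40.0, 27.5 and 26.1 in A1/A2 myeloid wells and 34.5, 49.2, 45.8 and 62.9 in EMP myeloid wells. Its log2 fold change was 1.19 ± 0.13 (adjusted p = 2.1e-08). All 5 genes were thus called higher, where 27.4% of the 9975 genes tested were called higher and 54% were called in either direction. When wells meeting both rules were counted as myeloid, the log2 fold changes were 0.85 for Lrp2, 1.05 for Cubn, 0.92 for Amn, 0.71 for Dab2 and 0.57 for Fcgrt, and with the Apoa1 limit at the mean they were 2.70, 2.83, 3.08, 1.48 and 1.49 in the same order.

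**Figure D1:**
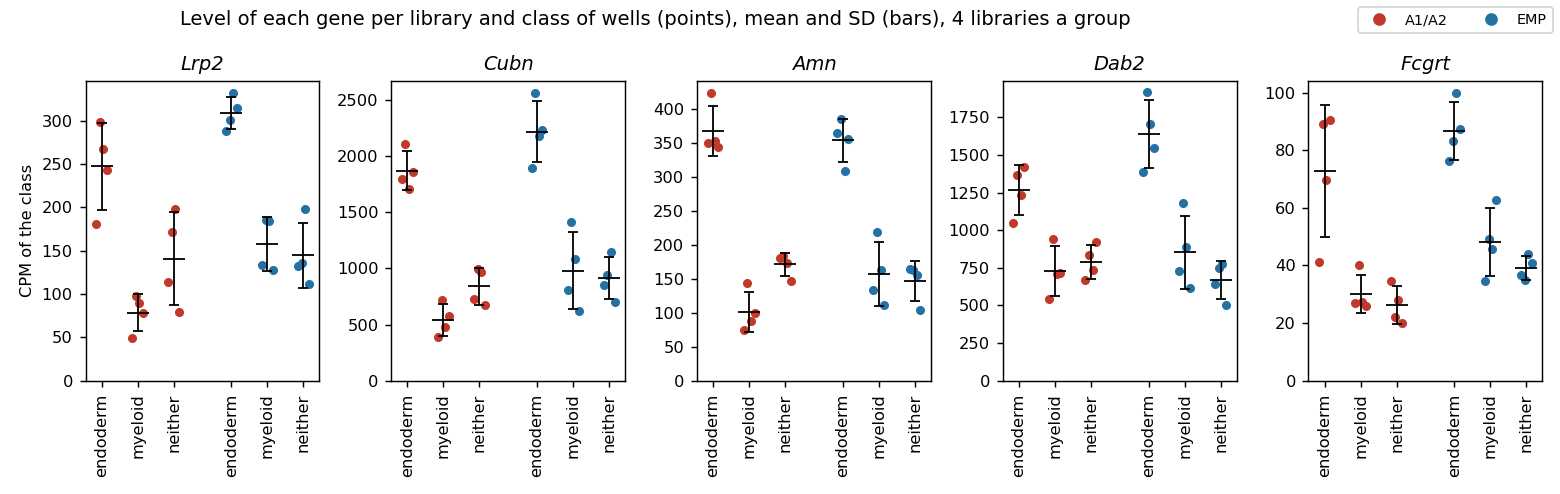
Level of each receptor gene in CPM of a class of wells (vertical axis, linear from 0), for endoderm, myeloid and other wells of A1/A2 and EMP libraries. Points are libraries and bars the mean and SD of 4; for Cubn the A1/A2 endoderm wells average 1871 and the A1/A2 myeloid wells 542.

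Wells of neither class lay between or beside the other classes. Cubn averaged 842 ± 166 there in A1/A2 and 911 ± 188 in EMP libraries, Dab2 790 ± 111 and 669 ± 125, and Lrp2 141 ± 53.6 and 144 ± 37.6 (SD, n = 4 libraries). Ordered by mean, Lrp2 stood at 309 ± 18.6 in EMP endoderm, 247 ± 49.96 in A1/A2 endoderm, 157 ± 31.2 in EMP myeloid and 78.5 ± 21.1 in A1/A2 myeloid wells, and the wells of neither class did not differ from EMP myeloid wells beyond their spread. In this order Fcgrt stood at 86.8 ± 9.98, 72.7 ± 23.0, 48.1 ± 11.7 and 30.1 ± 6.60, the first 2 within their spread. In a sum over the wells of a class, fewer wells with a transcript and fewer transcripts per well cannot be told apart. Shares of wells are given below. Wells of neither class were shallow, with median totals of 2817 transcripts in A1/A2 and 13174 in EMP libraries, against 28888 and 36031 in endoderm wells and 25751 and 26589 in myeloid wells. Those of neither class held summed macrophage markers at 879 ± 310 CPM in A1/A2 and 194 ± 32.2 in EMP libraries. Ptprc stood there at 78.9 ± 33.6 and 11.8 ± 5.50. The myeloid rule needs a transcript found at unthinned depth, so that a shallow macrophage well can miss it. Wells of neither class are thus not read as non-myeloid.

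The share of wells with at least 1 transcript was compared after thinning each well to 1000 transcripts, with the unthinned share given after it. In A1/A2 libraries Cubn was found in 75.4% ± 4.26 of endoderm wells (100% unthinned) and in 38.9% ± 11.1 of myeloid wells (88.9%). In EMP libraries it was found in 87.2% ± 2.92 of endoderm wells (97.8%) and in 44.7% ± 5.23 of myeloid wells (89.5%). Amn was found in 22.1% ± 10.6 and 30.8% ± 6.04 of A1/A2 and EMP endoderm wells (84.5% and 92.1%), and in 6.84% ± 5.17 and 12.4% ± 8.37 of A1/A2 and EMP myeloid wells (40.3% and 56.4%). Dab2 was found in 72.9% ± 13.3 of A1/A2 endoderm wells (98.1%) and in 51.4% ± 5.29 of A1/A2 myeloid wells (96.1%), and in 77.8% ± 8.40 of EMP endoderm wells (99.0%) and 37.6% ± 7.27 of EMP myeloid wells (98.6%). The thinned share was higher in endoderm than in myeloid wells in every library for 3 genes, Cubn, Amn and Dab2, which 1.52% of all genes tested also showed. Without thinning Lrp2, Cubn, Amn and Fcgrt met this, at depths that differ between the classes. Thinned to 2000 transcripts, Lrp2, Cubn, Amn and Dab2 met it, as the same genes did at 1000 without EMP 3. Thinning was 1 random draw per well, so that the place of Lrp2 is not read as a result. The share of all genes that met it in these other settings was not computed, so that their counts have no rate beside them. Lrp2 was found in 29.5% ± 22.1 and 18.8% ± 9.29 of A1/A2 and EMP endoderm wells and in 5.62% ± 1.29 and 10.8% ± 5.44 of A1/A2 and EMP myeloid wells (81.8%, 89.97%, 46.0% and 60.9% unthinned, in this order). Fcgrt was found in few thinned wells, at 6.23% ± 7.58 and 6.01% ± 4.11 of A1/A2 and EMP endoderm wells, against 1.42% ± 1.73 and 11.9% ± 9.32 of A1/A2 and EMP myeloid wells. No order is read from the thinned share of Fcgrt. Its unthinned shares were 72.1% and 81.2% in A1/A2 and EMP endoderm wells and 37.5% and 52.7% in A1/A2 and EMP myeloid wells.

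Within endoderm wells the receptor genes occurred together at depth. All 5 had a transcript in 38 of 57 A1/A2 endoderm wells (66.7%) and in 130 of 163 EMP endoderm wells (79.8%). Wells with all 5 had a median total of 47591 transcripts, and wells with 4 had 8959. In endoderm wells of at least 10000 transcripts the medians per 10000 were 19.1 for Cubn, 12.6 for Dab2, 3.69 for Amn, 2.58 for Lrp2 and 0.742 for Fcgrt in 42 A1/A2 wells, and 23.1, 16.4, 3.56, 2.91 and 0.786 in 136 EMP wells. The order of the genes was the same in both. Among EMP endoderm wells (n = 163) the levels of Cubn and Dab2 had a Pearson r of 0.40 and the other pairs 0.15 to 0.34. Among A1/A2 endoderm wells (n = 57) the pairs ran from -0.25 to 0.26. These wells share libraries and differ in depth, and the values are a description.

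A1/A2 and EMP libraries were then compared within each class. Over all kept wells Lrp2 had 73.2, 172.9, 146.7 and 101.4 CPM in A1/A2 libraries, against 177.3, 252.3, 216.5 and 206.5 in EMP libraries. Every A1/A2 library lay below every EMP library, as was the case for 12.9% of the genes tested. Lrp2 (-0.81 ± 0.23, adjusted p = 0.025), Cubn (-0.84 ± 0.24, adjusted p = 0.026) and Fcgrt (-0.65 ± 0.17, adjusted p = 0.014) were called lower in A1/A2 libraries on the log2 scale, 3 of 5 where 15.4% of 11144 genes were called lower and 32.8% in either direction. Amn (-0.55 ± 0.23, adjusted p = 0.097) and Dab2 (-0.44 ± 0.21, adjusted p = 0.13) were not called in this fit, which has no replicate block. With such a block both were called lower, as given in the closing section. Endoderm wells made up a smaller share of A1/A2 libraries, as given above, and 11 of 15 yolk sac endoderm markers were also called lower. The part of this share in the difference was not tested apart from the comparisons within classes. Left out of the fit, EMP 2 took Lrp2 to an adjusted p of 0.11 and Cubn to 0.062, and A1/A2 4 took them to 0.068 and 0.064. Cubn was also lost without A1/A2 1 (0.057) or A1/A2 3 (0.056), and without the wells over 3 times the median depth Lrp2, Cubn and Fcgrt stood at -0.15, -0.21 and -0.34, none of them called.

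Within endoderm wells the groups of libraries lay close together. Cubn averaged 1871 ± 173 CPM in A1/A2 and 2218 ± 273 in EMP endoderm wells, and Amn 368 ± 37.4 and 354 ± 32.1 (SD, n = 4 each). No gene of the 5 separated the groups, where 4.95% of genes lay wholly below and 6.22% wholly above. Dab2, at 1268 ± 165 in A1/A2 and 1640 ± 228 in EMP endoderm wells, was called lower in A1/A2 (-0.36 ± 0.11, adjusted p = 0.041), 1 of 5 where 1.47% of 7956 genes were called lower, 3.9% higher and 5.37% in either direction. This call was lost under 13 of 20 alternatives, among them leaving out EMP 2 (adjusted p = 0.19) and leaving out wells that met both rules (-0.26, adjusted p = 0.51). Cubn (-0.23, adjusted p = 0.19), Lrp2 (-0.28, adjusted p = 0.17), Fcgrt (-0.15, adjusted p = 0.64) and Amn (0.07, adjusted p = 0.80) were not called. Macrophage markers, at 375 CPM in A1/A2 and 62.4 in EMP endoderm wells, moved with this contrast, and their part in it was not tested.

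Within myeloid wells Lrp2 was lower in A1/A2 than in EMP libraries without overlap, at 49.3 to 97.6 against 127.7 to 184.8 CPM, as were 12.1% of genes. Its log2 fold change was -1.02 ± 0.20 (adjusted p = 0.0020) and it was called in every fit that left out 1 library, but not without the deep wells (-0.30, adjusted p = 0.73) or with the Apoa1 limit at the mean (-0.51, adjusted p = 0.28). Fcgrt, with 30.1 ± 6.60 in A1/A2 and 48.1 ± 11.7 in EMP myeloid wells, was also called lower (-0.65 ± 0.20, adjusted p = 0.018), and was lost without A1/A2 1 (0.051), A1/A2 4 (0.063), EMP 3 (0.056) or EMP 4 (0.051). Fcgrt was lost under 7 of 21 alternatives in all, and by the Cx3cr1 rule alone it stood at -0.31 (adjusted p = 0.56), with the Apoa1 limit at the mean at -0.63 (adjusted p = 0.17) and by the Mrc1 rule alone at -0.56 (adjusted p = 0.052). These were 2 of 5, where 15.1% of 9593 genes were called lower and 30.2% in either direction. Cubn averaged 542 ± 142 in A1/A2 and 979 ± 345 in EMP myeloid wells (-0.86, adjusted p = 0.062) and Amn 101 ± 30.0 and 157 ± 46.8 (-0.62, adjusted p = 0.067), neither called. Both were called lower with a replicate block, as given in the closing section. Dab2 averaged 728 ± 165 and 852 ± 244 (-0.24, adjusted p = 0.43). Of 15 yolk sac endoderm markers, 6 were lower in A1/A2 myeloid wells and none higher, and their part in these values was not tested.

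The distance between endoderm and myeloid wells was wider in A1/A2 than in EMP libraries for Lrp2 (0.63 ± 0.15 on the log2 scale, adjusted p = 0.013) and Amn (0.63 ± 0.17, adjusted p = 0.043), by the interaction term. These were 2 of 5 where 2.45% of 9975 genes were called higher. Lrp2 lost the call under 8 of 20 alternatives and Amn under 14 of 20, and without EMP 3 Lrp2 had an adjusted p of 0.058. Cubn (0.55, adjusted p = 0.27), Fcgrt (0.37, adjusted p = 0.48) and Dab2 (-0.19, adjusted p = 0.48) were not called.

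The myeloid level was then set against the endoderm level of the same library, beside the summed level of 10 other endoderm genes (Afp, Ttr, Apob, Apoa4, Apoc2, Rbp4, Trf, Fga, Fgb and Fgg), which encode secreted proteins. In A1/A2 libraries these 10 stood in myeloid wells at 25.3% ± 6.06 of their endoderm level, Lrp2 at 31.4% ± 2.76, Cubn at 28.7% ± 5.28 and Amn at 27.2% ± 5.43. Dab2 stood at 57.2% ± 8.47 (50.5 to 69.1) and Fcgrt at 44.6% ± 15.4. In EMP libraries the 10 genes stood at 42.2% ± 9.93, Cubn at 43.7% ± 11.8, Amn at 44.4% ± 12.5, Lrp2 at 50.9% ± 9.38, Dab2 at 51.4% ± 8.81 and Fcgrt at 55.5% ± 12.7. Divided by the value of the 10 genes, Dab2 was at 2.33 ± 0.45 in A1/A2 and 1.24 ± 0.12 in EMP libraries, and above 1 in 8 of 8 libraries. Cubn, Lrp2 and Fcgrt were each above 1 in 7 and Amn in 6 of 8. The 10 genes were themselves higher in endoderm wells, by 1.39 (Apob) to 1.89 (Apoc2) on the log2 scale. A gene that differs less than these between the classes would lie above 1. The share of all genes above 1 was not computed, so that these counts do not set the 5 genes apart.

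**Figure D2:**
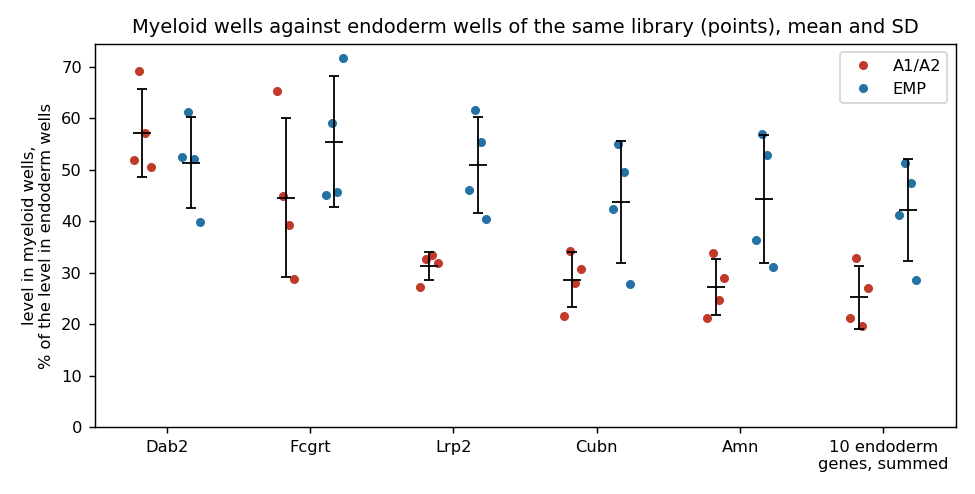
Level in myeloid wells as a percent of the level in endoderm wells of the same library (vertical axis, linear from 0), for the 5 genes and for 10 other endoderm genes summed. Points are libraries of A1/A2 and EMP and bars the mean and SD of 4; in A1/A2 libraries Dab2 lies at 57.2% and the 10 genes at 25.3%.

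The ratio of Cubn to Amn differed little between the classes, and that of Dab2 to Cubn was lower in endoderm wells of every library. There were 5.09 ± 0.24 Cubn transcripts per Amn transcript in A1/A2 endoderm wells and 6.29 ± 0.79 in EMP endoderm wells, against 5.38 ± 0.31 in A1/A2 myeloid wells and 6.16 ± 0.46 in EMP myeloid wells. The log2 difference between the classes, -0.03, was smaller than its SD of 0.13 over 8 libraries (two-sided exact permutation test over libraries, p = 0.555). There were 0.584, 0.647, 0.722 and 0.763 Dab2 transcripts per Cubn transcript in A1/A2 endoderm wells and 0.731, 0.750, 0.782 and 0.693 in EMP endoderm wells, against 1.39, 1.31, 1.47 and 1.25 in A1/A2 myeloid wells and 0.905, 0.835, 0.821 and 0.994 in EMP myeloid wells. The ratio was lower in endoderm than in myeloid wells in 8 of 8 libraries, by -0.63 on the log2 scale (SD 0.44, exact permutation p = 0.0078, the smallest 8 libraries can give, and 0.094 adjusted over 12 ratio tests). In myeloid wells the A1/A2 libraries all lay above the EMP libraries, by 0.61 ± 0.08 (SE; exact permutation p = 0.0286, the smallest possible, adjusted p = 0.114). In endoderm wells the groups overlapped (-0.13, exact permutation p = 0.257). Cubn per Lrp2 differed between classes by 0.20 (7 of 8 libraries, exact permutation p = 0.0234, adjusted p = 0.114). These tests were added after the values were seen, and no test of the 12 passed after adjustment.

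Myeloid wells were ranked within each group by the summed level of the 10 endoderm genes and divided into 4 bins of near-equal size. In A1/A2 libraries, from the lowest to the highest bin (60, 60, 59 and 60 wells), Cubn had 73.6, 177, 693 and 1325 CPM, Lrp2 8.44, 24.97, 112 and 186, and Amn 7.23, 19.5, 126.4 and 266. Dab2 had 520, 556, 674 and 1132 in the same bins, and Fcgrt 15.7, 16.98, 33.7 and 55.2. In the lowest bin Cubn, Lrp2 and Amn thus had a small part of their level in the highest, and Dab2 a larger part. Pooled over libraries, the number of Dab2 transcripts per Cubn transcript was 7.08, 3.15, 0.973 and 0.854. In the lowest bin it was 9.92, 6.57 and 9.42 in A1/A2 1 to 3 but 1.67 in A1/A2 4, within the 1.3 to 3.5 of the EMP libraries. Summed macrophage markers ran the other way, at 2469, 2447, 1541 and 1118 CPM, and median totals were 38535, 29008, 3595 and 8185 transcripts.

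In EMP myeloid wells (29, 28, 28 and 28 wells) Dab2 had 132, 355, 771 and 1347 CPM from the lowest to the highest bin, and Cubn 62.9, 265, 811 and 1713. Dab2 per Cubn was 2.10, 1.34, 0.952 and 0.786, and the macrophage markers 422, 446, 482 and 161. By library, the lowest bin held Dab2 at 505, 661, 594 and 199 CPM in A1/A2 libraries (516, 355, 358 and 65 counts), against 87.5, 259, 162 and 131 in EMP libraries (26, 12, 42 and 21 counts). The A1/A2 libraries lay above the EMP libraries but for A1/A2 4, which lay below EMP 2. These values rest on 28, 14, 11 and 7 wells in A1/A2 libraries and on 9, 3, 12 and 5 in EMP libraries. Cubn in these wells averaged 83.5 ± 32.0 in A1/A2 and 65.1 ± 20.4 in EMP libraries, and Lrp2 9.33 ± 4.49 and 10.2 ± 8.47. Counts were few, at 52, 54, 38 and 39 for Cubn and 4, 5, 9 and 3 for Lrp2 in A1/A2 libraries. In EMP libraries they were 20, 4, 18 and 6 for Cubn and 2, 0, 4 and 3 for Lrp2. The ranking used Ttr, Rbp4 and other genes that go with the members from well to well, and the bins are a description with no test.

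**Figure D3:**
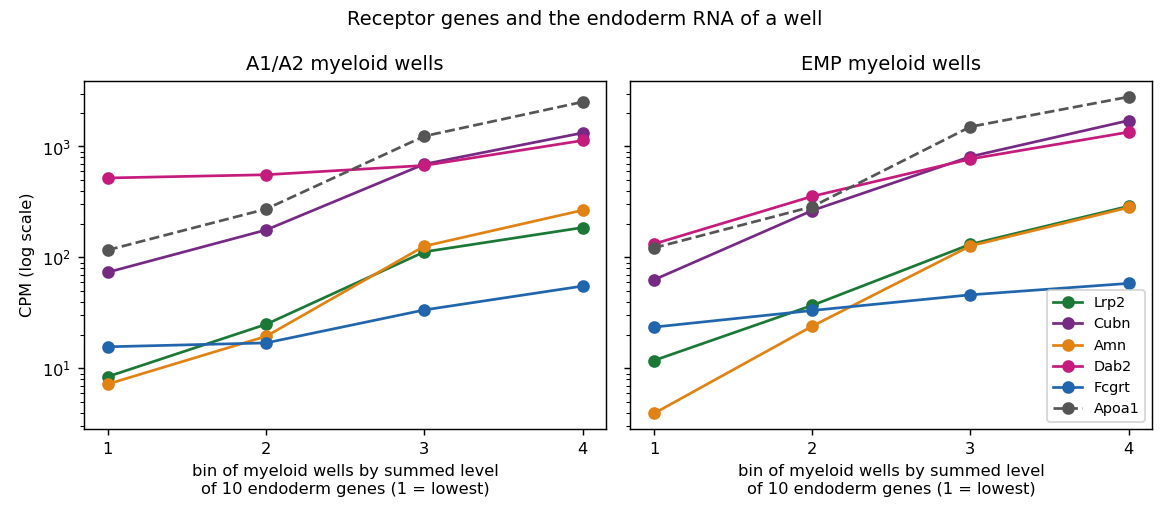
Levels of the 5 genes and, dashed, of Apoa1 in CPM (vertical axis, log scale) in 4 bins of myeloid wells ordered by 10 endoderm genes (horizontal axis, 1 = lowest), for A1/A2 wells and EMP wells. In A1/A2 wells Dab2 runs between 520 and 1132 while Cubn runs between 73.6 and 1325.

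Myeloid wells were also divided by which of the transcripts they had. In A1/A2 libraries the 96 wells with Cx3cr1 and Mrc1 had Dab2 at 822 ± 198 and Cubn at 523 ± 134 CPM, with macrophage markers at 2237 ± 178. That marker sum counts Cx3cr1 and Mrc1 themselves, so that part of it follows from the choice of wells. The 57 wells with Mrc1 and no Cx3cr1 had 767 ± 267 Dab2 and 742 ± 311 Cubn, and the 86 with Cx3cr1 and no Mrc1 had 466 ± 185 Dab2 and 486 ± 212 Cubn (SD over 4 libraries). Over libraries Dab2 ran from 264 to 702 in the wells with Cx3cr1 and no Mrc1. It ran from 428 to 994 in those with Mrc1 and no Cx3cr1, and from 637 to 1103 in those with both. In the same order Cubn ran from 286 to 785, from 275 to 905 and from 373 to 665. The sets overlapped for both genes, and no test was made. The sets were not matched in depth, on which finding both transcripts depends. In EMP libraries the 88 wells with Mrc1 and no Cx3cr1 had 872 ± 247 Dab2 and 1014 ± 380 Cubn, and the 17 with Cx3cr1 and no Mrc1, from 2 libraries, had 796 ± 195 Dab2 and 986 ± 247 Cubn.

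Wells were also clustered by their own transcripts, separately for A1/A2 and EMP and without the 5 genes. Genes that vary with the 5 from well to well, such as Ttr and Afp, took part in the clustering, so that the levels of the 5 in a cluster are a description and no independent support. A cluster with the markers of yolk sac endoderm was found in each group, with 72 wells in A1/A2 and 154 in EMP libraries. By the rules above, 35 of the 72 were endoderm and 15 myeloid wells, and 119 of the 154 were endoderm and 11 myeloid wells. Cluster and class thus hold partly different wells, and the myeloid class includes wells that cluster as endoderm-like. In these endoderm-like clusters Cubn stood at 1725 ± 281 and 2238 ± 298 CPM in A1/A2 and EMP libraries, Dab2 at 1220 ± 254 and 1633 ± 258, Amn at 362 ± 39.5 and 364 ± 31.8, Lrp2 at 258 ± 33.4 and 329 ± 26.2, and Fcgrt at 60.7 ± 16.2 and 83.8 ± 8.31. For 9 of 10 pairs of gene and group this cluster held the highest level. The exception was Fcgrt in A1/A2, at 68.9 in the 1 library of a cluster led by Lyz1, Ccl22 and Ctss with 12 wells there.

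An unnamed A1/A2 cluster of 104 wells, 99 of them myeloid and none endoderm, had Dab2 at 542 ± 97.9 CPM (442 to 629), but 120 ± 52.4 Cubn, 16.4 ± 7.19 Lrp2, 14.4 ± 5.78 Amn and 15.2 ± 2.92 Fcgrt. Its leading genes were Lpl, Ccnd2, Coro1a and Myc, with 5 macrophage markers raised and none among the first 10. Dab2 per Cubn was 5.24 ± 2.30 there, against 0.705 ± 0.081 in the A1/A2 endoderm-like cluster. An unnamed EMP cluster of 108 wells, led by Fermt3 and Plek with 7 progenitor markers raised, had 201 ± 46.7 Dab2 and 217 ± 68.7 Cubn, a ratio of 0.944 ± 0.092, against 0.728 ± 0.026 in the EMP endoderm-like cluster. The endothelial-like EMP cluster of 93 wells, 44 of them myeloid and 4 endoderm by the rules, had 527 ± 192.2 Dab2 and 583 ± 261 Cubn. The mean ratio lay between 0.728 and 0.944 in every EMP cluster with at least 5 wells in a library. In A1/A2 libraries it lay between 0.705 and 1.33 in the other clusters, except for 3.03 ± 0.52 in a lymphoid-like cluster, measured in 2 libraries with 13 wells in all. These cluster values carry no test.

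**Figure D4:**
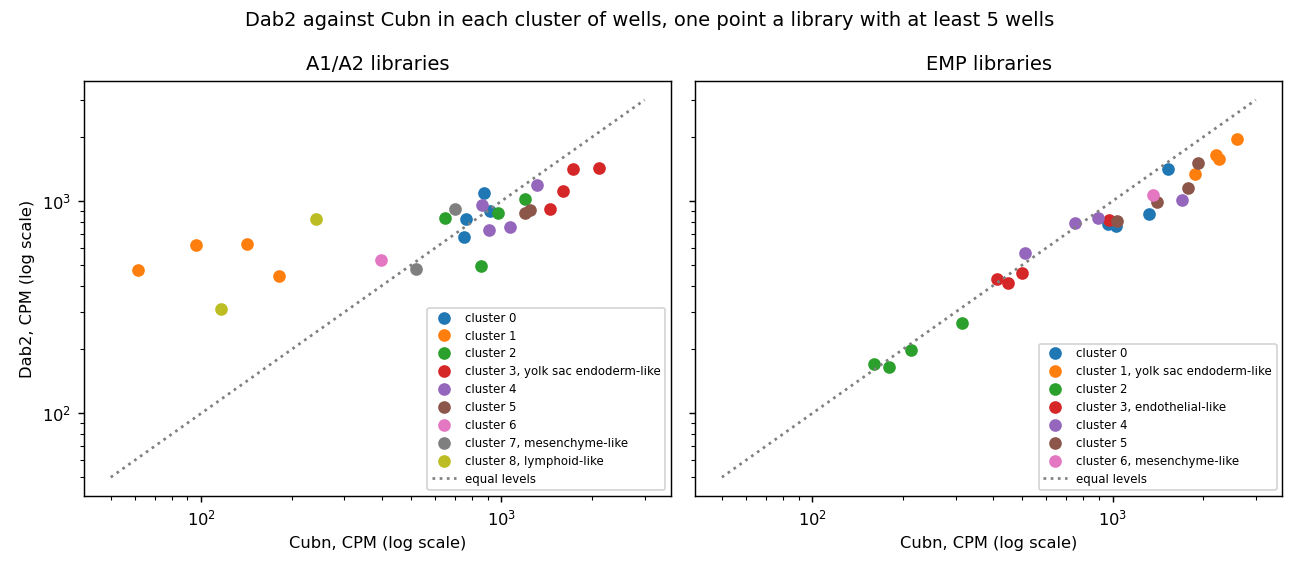
Dab2 against Cubn in CPM (both axes log scale) in each cluster of wells, for A1/A2 libraries and EMP libraries, one point a library with at least 5 wells in the cluster; the dotted line marks equal levels. The A1/A2 cluster of 104 wells lies above the line, with 542 Dab2 and 120 Cubn on average, and both endoderm-like clusters lie below it.

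The ligands of the receptors and the genes of their route were taken from lists of pathway genes. Of 9 genes for ligands, 7 were tested and all 7 were higher in endoderm than in myeloid wells, where 27.4% of all genes tested were higher. Their median log2 fold change was 1.67, against -0.03 over all genes tested. Transcobalamin (Tcn2), the carrier of vitamin B12, stood at 1.43 ± 0.16 (adjusted p = 4.6e-07), transthyretin (Ttr), a thyroid hormone carrier, at 1.72 ± 0.16 (adjusted p = 2.0e-05) and transferrin (Trf), the iron carrier, at 1.79 ± 0.18 (adjusted p = 2.3e-05). Ttr, Trf, Rbp4 and Apob are also among the 10 endoderm genes above. Rbp4, the retinol carrier, averaged 4264 ± 303 CPM in A1/A2 and 4477 ± 196 in EMP endoderm wells, against 1038 ± 290 in A1/A2 and 1758 ± 453 in EMP myeloid wells.

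Of 14 genes for the chaperone, adaptors and coat, 13 were tested, of which 8 were higher in endoderm wells and 1 lower, with a median of 0.51, where 27.4% of all genes tested were higher and 26.6% lower. Lrpap1, the chaperone RAP that escorts megalin through the secretory pathway, averaged 280 ± 12.9 CPM in A1/A2 and 268 ± 16.0 in EMP endoderm wells, against 103 ± 8.51 and 153 ± 24.997 in A1/A2 and EMP myeloid wells (1.24 ± 0.10, adjusted p = 1.8e-10). Myo6, a motor of endocytic vesicles that binds Dab2, was higher by 1.32 ± 0.10 (adjusted p = 1.3e-10) and the clathrin heavy chain Cltc by 0.84 ± 0.07 (adjusted p = 7.1e-11). Gipc1, a scaffold that binds the tail of megalin, was the one lower gene (-0.88 ± 0.16, adjusted p = 4.6e-05).

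Of 13 genes for endosomal sorting and acidification 9 were higher and none lower, with a median of 0.51. Over all 9975 genes tested, 27.4% were higher and 26.6% lower. Clcn5, the endosomal chloride and proton exchanger, averaged 231 ± 31.7 CPM in A1/A2 and 287 ± 12.1 in EMP endoderm wells, against 99.9 ± 14.3 in A1/A2 and 147 ± 44.6 in EMP myeloid wells (1.21 ± 0.09, adjusted p = 5.4e-11). Ehd1, which acts in endocytic recycling, stood at 1.14 ± 0.10 and Atp6v0a1, a subunit of the proton pump, at 1.07 ± 0.09. Of 10 other genes of the lipoprotein receptor family 6 were tested and 4 were higher, among them Lrp10 (0.96 ± 0.12), Lrp5 (1.21 ± 0.19) and Sorl1 (0.82 ± 0.13), while Lrp1 (0.38) was not called. Of 7 genes for other cargo receptors and the partner of FcRn, 6 were tested, 3 were higher and 1 lower, with a median of 0.18, where 54% of all genes tested were called in either direction. Folr1, a folate receptor, was higher by 1.77 ± 0.17 and Igf2r, which sorts lysosomal enzymes, by 1.11 ± 0.19.

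B2m, the light chain that FcRn shares with class I molecules, went against its partner. It averaged 140 ± 63.1 CPM in A1/A2 and 82.0 ± 12.02 in EMP endoderm wells, against 411 ± 38.3 in A1/A2 and 162 ± 25.1 in EMP myeloid wells (-1.19 ± 0.15, adjusted p = 2.8e-05). In myeloid wells it was also higher in A1/A2 than in EMP libraries (1.31 ± 0.12, adjusted p = 1.3e-07), where Fcgrt was lower. Clta, a clathrin light chain, averaged 418 ± 25.1 in A1/A2 and 202 ± 16.2 in EMP myeloid wells (1.03 ± 0.10, adjusted p = 3.5e-07), and Lrp1, a relative of megalin known from macrophages, 35.1 ± 1.47 and 11.2 ± 8.66 (1.70 ± 0.29, adjusted p = 0.00023). Igf2r was lower there in A1/A2 (-1.39 ± 0.15, adjusted p = 1.2e-06), as was Myo6 (-0.999 ± 0.146, adjusted p = 3.8e-05).

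**Figure D5:**
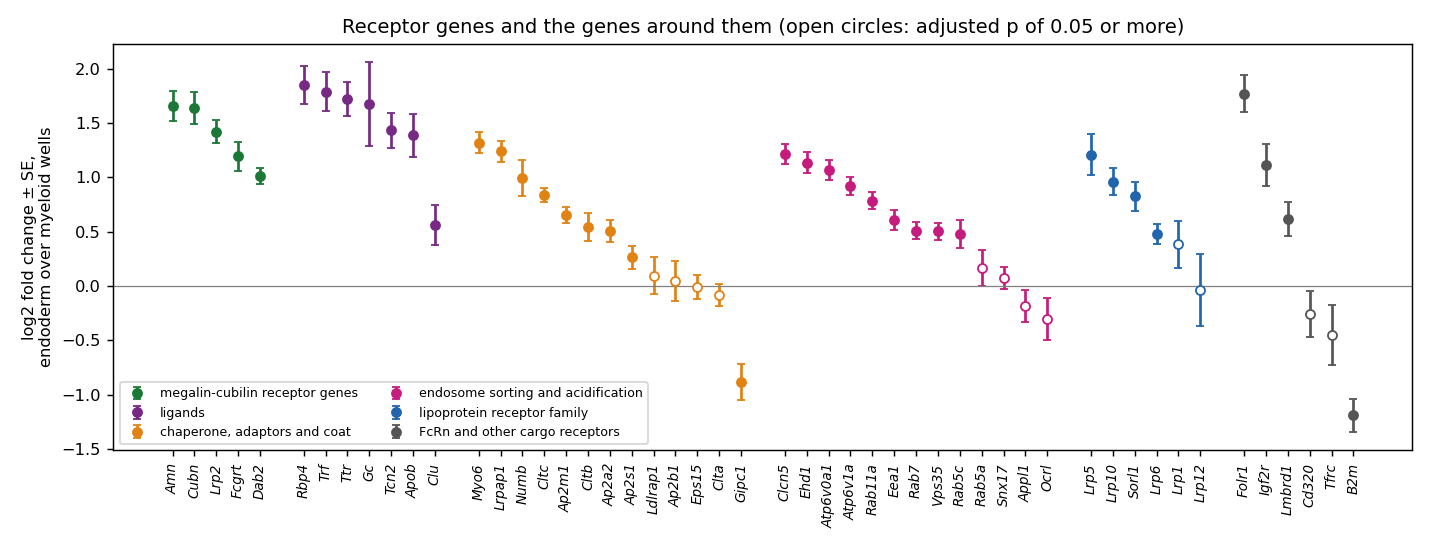
Log2 fold change of endoderm over myeloid wells (vertical axis, linear; error bars SE) for the 5 receptor genes and the pathway genes tested, grouped by list; open circles did not reach an adjusted p under 0.05. The 5 receptor genes lie between 1.01 and 1.66, and B2m (-1.19) and Gipc1 (-0.88) are the called genes below 0.

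The genes most like each member from well to well were sought among 2982 genes over all 1223 kept wells, by Pearson's r of log2(counts per 10000 + 1). Lrp2 went with Afp (0.58), Apoa1 (0.56) and Rbp4 (0.56), and Cubn with Ttr (0.73), Afp (0.72) and Rbp4 (0.71). Amn went with Apoa1 (0.62), Afp (0.61) and Rbp4 (0.59). Dab2 went with Ttr (0.64), Cubn (0.60) and Rbp4 (0.59), and Fcgrt, with few counts per well, with Trf, Fga and Rbp4 (each 0.32). These wells share libraries and differ in depth. A gene on the opposite strand, Gm13270, overlaps the 3' end of Cubn and had 3 transcripts in the tables against 40164 of Cubn. Gm45669, antisense over the 3' end of Fcgrt, was not analysed here, and without the counting strand its reads and those of Fcgrt cannot be told apart.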

How the data were processed

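The deposited tables hold, for each library, one row per gene and one column per well. The authors' values are estimated counts of transcripts: molecular identifiers corrected for collisions among 4096 identifiers, as the values show, since undoing that correction gave whole numbers for 100% of values (tolerance 1e-06). The submitters' processing notes name BWA (0.6.2-r126) and also Seurat, with no roles here; genome build, annotation and counting strand were not given in the sources used here. The series table of 689 A1/A2 wells differed from the library tables in 0 wells.

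Wells with at least 1000 transcripts were classed as described, and their estimated counts were added up for each library, and for each class within a library, and rounded. Genes were filtered with filterByExpr, scaled by TMM and tested with edgeR 4.0.16's robust quasi-likelihood test in R 4.3.3, with Benjamini-Hochberg adjustment over all genes tested and a threshold of 0.05; Apoa1, Cx3cr1 and Mrc1 were left out of the tests between or within classes. The comparison of classes had the library as a term. Fits were tested on simulated data. Clusters were made with scanpy 1.11.5 (2000 variable genes, 20 components, 15 neighbours, resolution 0.6), and named only where the fixed markers led; no doublet caller was run and free RNA was not removed. Ratios were tested by two-sided exact permutation over libraries. Means are given with the SD over libraries. The number of libraries and, for Fcgrt, its counts limit the precision.

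The 5 genes are always named. Of each pathway list up to 3 genes with the smallest p among those called between endoderm and myeloid wells are named, and for each member the 3 genes most like it (at least 50 CPM; predicted, ribosomal and mitochondrial genes left out). Gipc1, B2m, Lrp1 and Clta, and the values of Rbp4, Igf2r and Myo6 between libraries, were chosen after their values were seen. One gene of the pathway lists is not reported here. The members, lists and classes were chosen with earlier results of these data known. Alternatives were DESeq2 1.42.0, other filters and limits, thinned wells, other class rules, wells over 3 times the median depth left out, each library left out, and a replicate block. The libraries were not treated as pairs by their replicate number, since not every same-numbered pair correlated (values in the closing section).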

Additional observations from a re-analysis of the deposited data

Results flagged for a closer look

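Of 30 groups of 4 libraries examined for the 5 genes, 3 held a library that stood apart from the other 3, where chance alone gives about 1 in 20. A1/A2 2 had the highest Amn level in endoderm wells, at 424.0 CPM, against 345.0 to 353.4 in the other A1/A2 libraries. The same library had the highest Fcgrt level in A1/A2 myeloid wells, at 40.0 CPM, against 26.1 to 27.5 in the others. EMP 2, with the largest share of endoderm wells (41.2%), had Dab2 at 1587 CPM over all kept wells, the highest of the EMP libraries.

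The difference between endoderm and myeloid wells was larger in A1/A2 than in EMP libraries for Amn and for Lrp2, by 0.63 on the log2 scale for each, in the interaction term of edgeR's quasi-likelihood test (adjusted p = 0.043 for Amn and 0.013 for Lrp2). In the same libraries the 10 endoderm genes stood in myeloid wells at 25.3% of their endoderm level in A1/A2 and at 42.2% in EMP libraries, and their part in this difference was not tested.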

How the results depend on the processing

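The higher level of each of the 5 genes in endoderm wells was called under all 21 or 22 alternatives each. Genes called numbered 3651 between libraries, 5391 between classes, 427 in endoderm wells, 2896 in myeloid wells and 355 for the difference. Without deep wells these were 786, 2997, 33, 231 and 20. Thinned wells, with few genes left to test, gave 63 between classes, 7 in endoderm wells, 8 in myeloid wells and 3 for the difference. In endoderm wells no filter gave 691, wells of at least 2000 transcripts 276, the Apoa1 limit at the mean 1028, and wells meeting both rules left out or counted as myeloid 71 each. For the difference DESeq2 gave 133, wells of at least 2000 transcripts 210, wells meeting both rules left out 221 or as myeloid 182, and the Cx3cr1 rule alone 100, and that rule gave 1270 in myeloid wells. Leaving out 1 library gave 2596 to 4087 between libraries, 5093 to 5345 between classes, 222 to 533 in endoderm wells, 1972 to 3087 in myeloid wells and 143 to 432 for the difference. The difference in Dab2 per Cubn between classes ran from -0.71 to -0.54, that between A1/A2 and EMP myeloid wells from 0.57 to 0.67, the pairs with their highest level in the endoderm-like cluster numbered 9 to 10, and the genes with a higher share in every library 3 to 4. Dab2 per Cubn between classes passed after adjustment with wells of at least 500 transcripts (-0.63), the Apoa1 limit at the mean (-1.36), wells meeting both rules left out (-0.60) and the Cx3cr1 rule alone (-0.66). Reversed, none of them called in the report, were Dab2 between libraries without deep wells (0.24); Amn in endoderm wells, 0.07 in the report, with no filter (-0.028), without deep wells (-0.22), at the Apoa1 limit of the mean (-0.089) or per library (-0.082), and with wells meeting both rules left out or as myeloid (-0.0056 each); Dab2 in myeloid wells without deep wells (0.45), at the Apoa1 limit of the mean (0.37) or thinned (0.67); and, for the difference, Cubn thinned (-1.27), Dab2 with wells meeting both rules as myeloid (0.10), and Fcgrt without deep wells (-0.21) or by the Cx3cr1 rule (-0.0017). The cause was not tested. An Apoa1 limit of 4 times the mean left 7 wells and gave no value. Same-numbered libraries correlated by 0.23, 0.41, -0.02 and 0.23 and are taken to share only a number, although every library but those numbered 3 correlated best with its own number, a hint from the data and not the design. The labels name these numbers P1 to P4 in both groups and do not say what P marks. With a replicate block 4736 genes were called between libraries, all 5 members lower, among them Amn (-0.55, adjusted p = 0.00012) and Dab2 (-0.42, adjusted p = 0.0011), 569 in endoderm wells and 2979 in myeloid wells, where Cubn (-0.84, adjusted p = 0.0035) and Amn (-0.66, adjusted p = 0.00096) were also called lower, and without a library block 5476 between classes. The share of all genes called lower with the replicate block is not given, so that these counts of members have no rate beside them.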
